A study of Capra hircus with 3 samples.

Results

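PDGFA and PDGFRA, a secreted growth factor and a receptor that binds it, were followed across the cells of fetal goat skin. Both were taken by name from the table, as the 2 members among 16739 listed genes. Skin from the back of Northern Shaanxi White Cashmere goat fetuses (Capra hircus) was sequenced cell by cell from transcript 3′ ends (10x Genomics droplets) at embryonic days 60, 90 and 120 (E60, E90 and E120), which the series names as the induction, organogenesis and cytodifferentiation stages of the hair follicle. Each stage was 1 library, pooled from at least 2 fetuses. No genotype, sex or treatment is given in the labels used here. The E60 and E90 libraries came from whole skin loosened with collagenase IV and a pipette, and the E120 library from hair follicles picked out of the skin with forceps and then dissociated with TrypLE Express. Stage and preparation therefore cannot be told apart wherever E120 is compared. With 1 library a stage there was no replicate and no test, and every interval below is an exact 95% interval that covers counting error only.

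PDGFA encodes the A chain of platelet-derived growth factor, which is secreted as a dimer. PDGFRA encodes a receptor tyrosine kinase on the cell surface that binds PDGF dimers, pairs with a second receptor and passes the signal on through PI3-kinase, phospholipase C gamma and the Ras-MAP kinase route. In mouse skin the ligand is known from the epidermis and follicle epithelium and the receptor from the mesenchyme of the dermis, the dermal papilla (the mesenchymal core at the follicle base) and the precursors of dermal fat.

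The 3 libraries held 6849 to 6931 cells each, with median depths of 8579 (E60), 3714 (E90) and 13064 (E120) unique molecular identifiers (UMIs, counted molecules) per cell. Of 38 clusters, made without the PDGF ligand and receptor genes, 32 were given a class from marker genes ("epithelial-like" and so on), and 33 had over 90% of their cells from 1 library. Between libraries 32 cell barcodes of 20676 were shared. Unnamed clusters held 25.6% of all cells, most of them 1 E90 cluster of 4115 cells led by COX3, ACTG2 and CYTB, of which COX3 and CYTB are mitochondrial. Class markers were also found outside their own class at E90. There the epithelial list summed to 10537 counts per 1000000 UMIs (CPM) in its own class and to 1242 CPM in the dermal-like one. The dermal list summed to 12048 CPM in its own class and to 2265 CPM among epithelial-like cells. The unnamed E90 cells carried both lists, at 5253 and 4826 CPM. How far free or mixed RNA set the E90 values of either gene was not tested.

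Over whole libraries the ligand was lowest at E60 and highest at E90, whereas the receptor was nearly absent from the E120 library of picked follicles. Dermal-like cells were 89.1% of the E60, 7.52% of the E90 and 3.16% of the E120 library. PDGFA stood at 17.5 CPM at E60 (1141 UMIs, 16.5 to 18.6), 161 CPM at E90 (4888 UMIs) and 72.1 CPM at E120 (6732 UMIs). PDGFRA stood at 32.8 CPM at E60 (2135 UMIs), 61.6 CPM at E90 (1866 UMIs) and 1.90 CPM at E120 (177 UMIs). The intervals of no pair of stages overlapped for either gene. PDGFA was 9.20-fold higher at E90 than at E60 (8.63 to 9.82), a log2 ratio of CPM + 1 of 3.13, in a comparison where 21.3% of 6278 genes were at least 2-fold higher. From E90 to E120 it was 2.24-fold lower (2.16 to 2.32; log2 -1.15), a difference under 2-fold when each cell weighed the same (-0.70) or when libraries were scaled by the median of ratios (-0.90). PDGFRA was 1.88-fold higher at E90 than at E60 (log2 0.89), which did not pass the 2-fold rule, although it did among cells with at most 10% mitochondrial counts and 1000 or more genes (1.33). It was 32.5-fold lower at E120 than at E90 (27.9 to 38.2; log2 -4.44) and 17.3-fold lower than at E60 (14.9 to 20.3; log2 -3.55). Being past the fold was common: 24.2% of 6357 genes were at least 2-fold lower at E120 than at E90, and of 5982 genes 21.5% were lower and 19.4% higher at E120 than at E60, PDGFA (log2 1.98) among the latter.

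At E60 the ligand lay mainly in small cell groups outside the dermis and the epithelium. The cluster with the highest level was mural-like, that is, like the pericytes and smooth muscle around vessels, and was led by GAL, ITGA7 and IGFBP2. Its 223 cells were 3.26% of the library and held 46.8% of all PDGFA UMIs (534 of 1141), at 249 CPM (228 to 271). Schwann-like cells, the glia of peripheral nerves, followed with 227 CPM (190 to 270; 59 cells) and skeletal muscle-like cells with 220 CPM (178 to 268; 46 cells). The intervals of these 3 groups overlapped, so their order could not be resolved.

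Mural markers were clear in the GAL-led cluster. ABCC9 and KCNJ8, channel subunits of pericytes, stood at 454 and 169 CPM, the smooth muscle actin ACTA2 at 1996 CPM and the receptor NOTCH3 at 390 CPM, while RGS5 was low at 7.46 CPM. All 9 mural markers in the table were detected there and summed to 3351 CPM, against 261 CPM in dermal-like cells. The same cells carried 15835 CPM of the dermal list and 379 CPM of the skeletal muscle list. Of the epithelial list 13 of 19 markers, KRT5, KRT14 and TP63 among them, were at 0. The PDGFA level of mural-like cells depended on where the class was drawn: it was 437 CPM in 114 cells at the finer clustering resolution of 2 and 376 CPM in 142 cells when the library was clustered on its own.

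The dermal-like cells, 89.1% of the E60 library, gave only 27.3% of its PDGFA UMIs, at 5.49 CPM (4.89 to 6.13). Among their clusters the level ran from 2.17 CPM (CENPF, NEK2 and HJURP, a set of cell division genes) to 20.9 CPM (16.7 to 25.9) in the cluster led by CCL11, THBS4 and COL2A1. That last cluster stood apart from the other dermal-like clusters, none of which passed 5.18 CPM. Endothelial-like cells had 17.9 CPM and myeloid-like cells 10.3 CPM. Epithelial-like cells could barely be measured at this stage: there were 3, with 13 UMIs between them (292 CPM, 156 to 500). The pairing of an epithelial ligand with a mesenchymal receptor thus could not be examined at E60.

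At E90 the ligand was high in epithelial-like clusters and in a small unnamed one. An unnamed cluster of 54 cells led by CXCL10, FGF20 and CCL20 came first with 494 CPM (416 to 581); FGF20 and SHH, also among its 10 leading genes, are signals known from hair placodes. It stayed unnamed because its dermal and epithelial scores were too close (0.676 and 0.661), with KRT17 at 2029 CPM beside DCN at 1635 CPM. The epithelial-like cluster led by SEMA3E, AK8 and CHGA came next with 334 CPM (318 to 351; 1037 cells), and LHX2, a factor known from follicle buds, was among its leaders. Below them the cluster led by MMP7, SPP1 and ACSM1 had 180 CPM (156 to 207), and the suprabasal-like cluster led by KRT10, a keratin of epidermal cells that have left the basal layer, had 98.4 CPM (87.6 to 110). Within E90 epithelium the level thus spanned from 98.4 to 334 CPM, with no overlap between the 3 named clusters.

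The lowest PDGFA levels of E90 were dermal. The dermal-like cluster led by FNDC1, NDNF and PENK had 39.4 CPM (31.2 to 49.2) and the condensate- or papilla-like cluster led by BMP3, SPON1 and LRRTM2 had 62.6 CPM (49.4 to 78.3). Classes of neither tissue were not lower than these: endothelial-like cells had 102 CPM (71.9 to 141), myeloid-like 77.4 CPM (46.6 to 121) and mast-like 154 CPM (111 to 209). When dermal-like cells were split at the median of their epithelial marker share, PDGFA was 40.4 CPM (31.7 to 50.7) in the 261 cells with fewer such counts and 58.2 CPM (46.2 to 72.3) in the 260 with more, with overlapping intervals. The large unnamed cluster had 140 CPM (134 to 146). Seen by counts, epithelial-like cells held 44.1% of the E90 PDGFA UMIs in 1908 cells and unnamed cells 50.0% in 4266 cells.

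**Figure D1:**
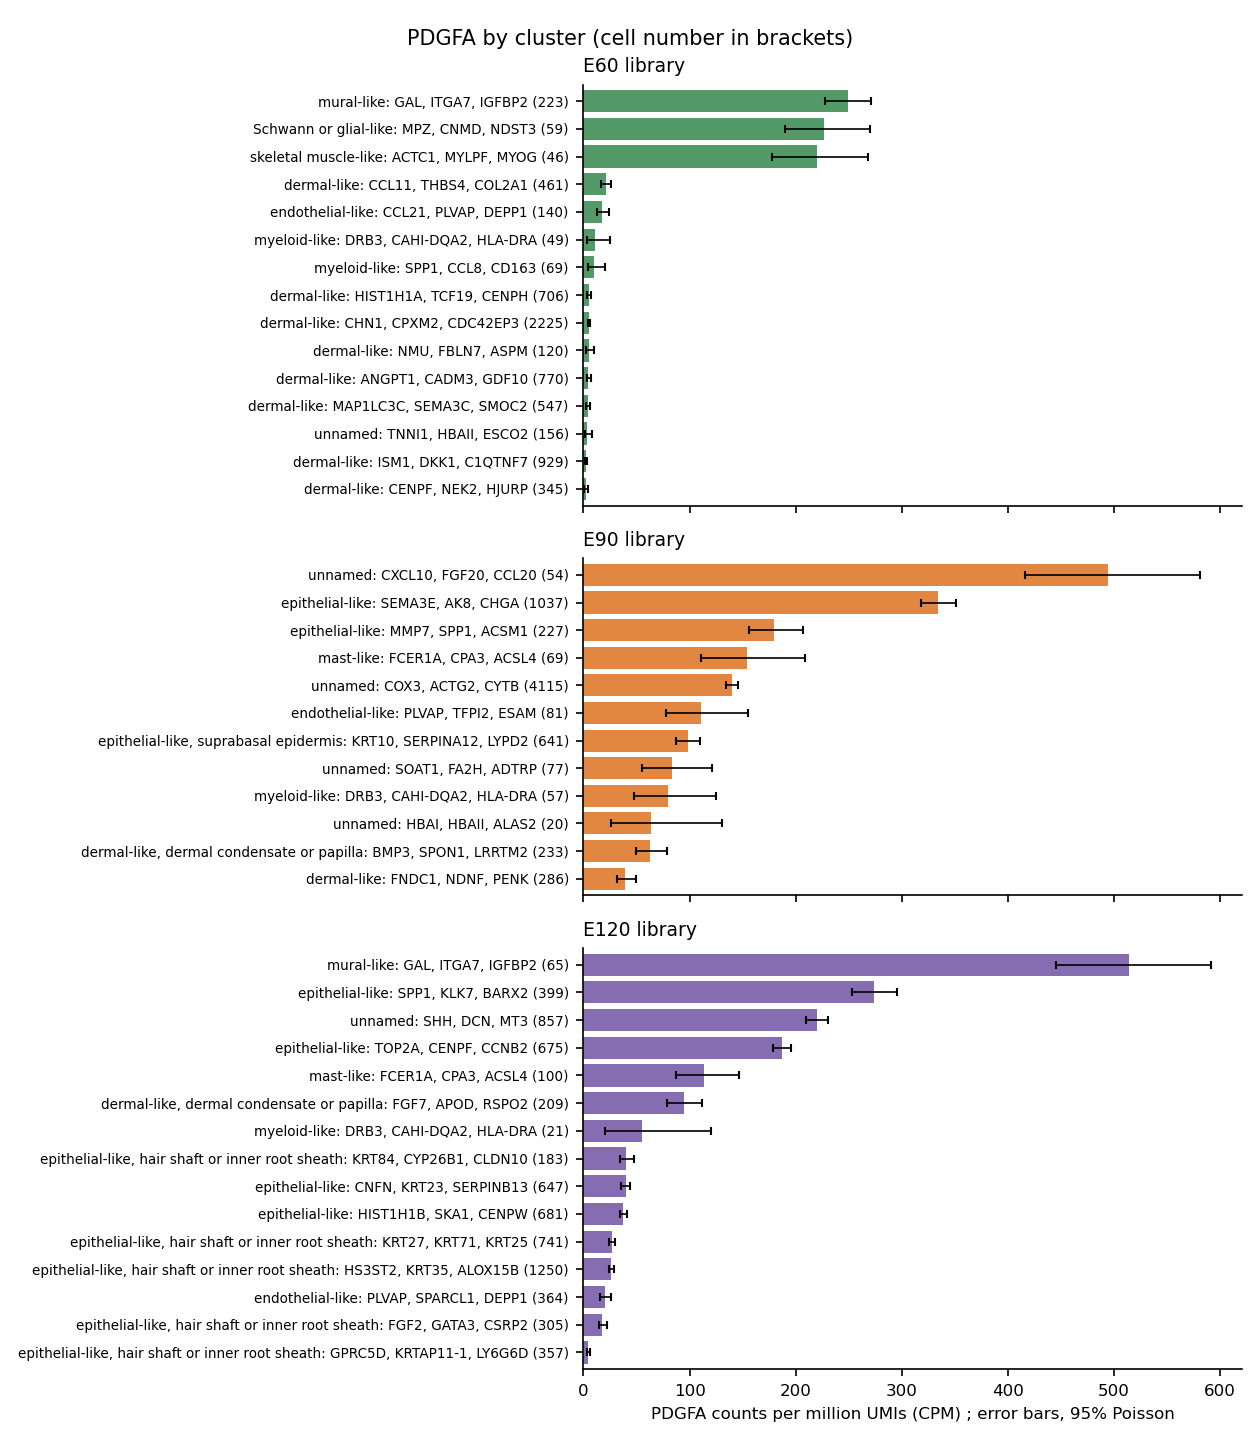
PDGFA level in CPM (horizontal bars, with 95% Poisson intervals) for each cluster of at least 20 cells, by library; each cluster is given by its class and its 3 leading genes, with its cell number in brackets. The mural-like, Schwann-like and skeletal muscle-like groups stand far above the dermal-like ones at E60, epithelial-like clusters and the CXCL10-led cluster lead at E90, and the E120 levels run from 514 CPM (mural-like) to 4.58 CPM (the GPRC5D-led cluster).

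By E120 the level of the ligand ran from 4.58 to 514 CPM between clusters of the same library. Mural-like cells, in the same GAL-led cluster as those of E60, came first with 514 CPM (445 to 591; 65 cells), and 55 of the 65 had at least 1 PDGFA UMI. The epithelial-like cluster led by SPP1, KLK7 and BARX2 followed with 274 CPM (253 to 295), and then the unnamed cluster led by SHH, DCN and MT3 with 220 CPM (210 to 230). SHH is a signal known from the follicle matrix. This cluster was closest to epithelium, with LHX2 at 252 CPM and COL1A1 at 0.339 CPM, but was left unnamed because the dermal marker DCN, at 1690 CPM, was among its leaders. Its 857 cells held 1948 of the 1949 PDGFA UMIs that lay in unnamed cells, 29.0% of the E120 total.

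The clusters of differentiating follicle epithelium were at the other end. Clusters like the hair shaft or inner root sheath, which make hair keratins or inner root sheath keratins, had 22.8 CPM together (21.5 to 24.2, 2836 cells). The other 2424 epithelial-like cells had 104 CPM (100 to 107). The lowest was the cluster led by GPRC5D, KRTAP11-1 and LY6G6D with 4.58 CPM (3.24 to 6.29), followed by the one led by FGF2, GATA3 and CSRP2 with 17.8 CPM. The KRT27-led and HS3ST2-led clusters, with 26.9 and 26.1 CPM, did not differ beyond counting error. The KRT84-led cluster had 40.5 CPM, which overlapped 39.7 CPM in the cluster led by CNFN, KRT23 and SERPINB13. Epithelial-like clusters with cell division genes among their leaders did not share a level. The one led by TOP2A, CENPF and CCNB2 (genes of late cell cycle) had 187 CPM (179 to 196). The one led by HIST1H1B, SKA1 and CENPW (a replication histone and kinetochore genes) had 37.6 CPM (34.0 to 41.4). The FGF2-led cluster, with 17.8 CPM, also had the cell division genes NUSAP1 and CDCA8 among its 10 leading genes.

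Dermal papilla-like cells also carried the ligand at E120. The cluster led by FGF7, APOD and RSPO2 had 94.3 CPM of PDGFA (78.9 to 112; 133 UMIs in 209 cells). Of the other non-epithelial groups in that library, endothelial-like cells had 20.2 CPM (15.3 to 26.2) and mast-like cells 114 CPM (86.9 to 147), which overlapped the papilla-like value. Hair shaft markers summed to 2598 CPM among dermal-like cells, 2649 CPM among endothelial-like and 6349 CPM among mast-like ones. When papilla-like cells were split at the median of their epithelial marker share, with the shaft and suprabasal lists included, PDGFA was 118 CPM (93.8 to 146) in the 105 cells with fewer of these counts (1471 CPM) and 70.9 CPM (52.6 to 93.4) in the 104 cells with more (4837 CPM). Hair shaft or inner root sheath markers made up 2598 of the 3116 CPM of these lists in dermal-like cells. Clusters of that kind had only 22.8 CPM of PDGFA, so the split cannot gauge RNA from clusters high in PDGFA. The split was chosen after the data were seen, and the part of epithelial RNA in the papilla-like value was not tested.

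The receptor gene followed the dermis at all 3 stages. At E60 dermal-like cells held 94.6% of the PDGFRA UMIs, at 35.6 CPM (34.1 to 37.2). Their clusters lay close together, from 26.8 CPM (MAP1LC3C-led) and 27.1 CPM (ANGPT1-led) to 44.2 CPM (39.6 to 49.1; ISM1, DKK1 and C1QTNF7) and 51.2 CPM (44.2 to 59.1; CENPF, NEK2 and HJURP). Neighbours in this order overlapped, while its ends did not. The CENPF-led and ISM1-led clusters, highest in the receptor, had the lowest PDGFA levels of the dermal-like clusters, 2.17 and 2.37 CPM. Outside the dermis mural-like cells had 19.6 CPM of PDGFRA (14.1 to 26.5), myeloid-like cells 6.02 CPM and endothelial-like cells 3.40 CPM (1.47 to 6.70).

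At E90 PDGFRA was highest in the dermal-like cluster led by FNDC1, NDNF and PENK, with 267 CPM (245 to 291; 286 cells). The condensate- or papilla-like cluster had 106 CPM (88.4 to 126; 233 cells), which was above every non-dermal cluster but well below the first; its interval overlapped only that of the myeloid-like cells, 67.2 CPM (38.4 to 109), and the mast-like cells, 60.1 CPM (34.4 to 97.6). The large unnamed cluster had 54.7 CPM (51.1 to 58.4) and held 887 of the 917 receptor UMIs that lay in unnamed cells, 49.1% of the library's total. Epithelial-like clusters had 20.9 to 28.7 CPM, within the interval of endothelial-like cells, which should lack the gene (27.6 CPM, 13.2 to 50.8; 10 UMIs). Among epithelial-like cells PDGFRA moved with the dermal markers: 17.5 CPM (14.1 to 21.4) in the 954 cells with fewer dermal marker counts and 38.5 CPM (32.5 to 45.2) in the 954 with more. The endothelial-like cells of E90 carried 3217 CPM of the dermal list, against 2265 CPM in epithelial-like cells, and 3046 CPM of the epithelial list. The part of free RNA in the epithelial-like and endothelial-like values was not tested.

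At E120 the receptor was found almost wholly in 1 cluster. The papilla-like cluster, 209 of 6896 cells, held 167 of the 177 PDGFRA UMIs, at 118 CPM (101 to 138). It had the markers of its name: FGF7 at 1981 CPM, APOD at 1528 CPM, the Wnt agonists RSPO2 and RSPO3 at 1186 and 1129 CPM, and SOX2 at 364 CPM, although CORIN was at 0. The remaining UMIs lay in epithelial-like cells (5, or 0.0631 CPM), unnamed cells (4) and dermal-like cells outside the cluster (1). No UMI was seen in 365 endothelial-like cells (up to 1.31 CPM), 65 mural-like cells (up to 9.53 CPM), 100 mast-like cells (up to 7.14 CPM) or 21 myeloid-like cells (up to 33.9 CPM). Dermal-like cells held 94.9% of the receptor UMIs, and 89.3% to 96.6% under the other ways of drawing classes that were run.

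**Figure D2:**
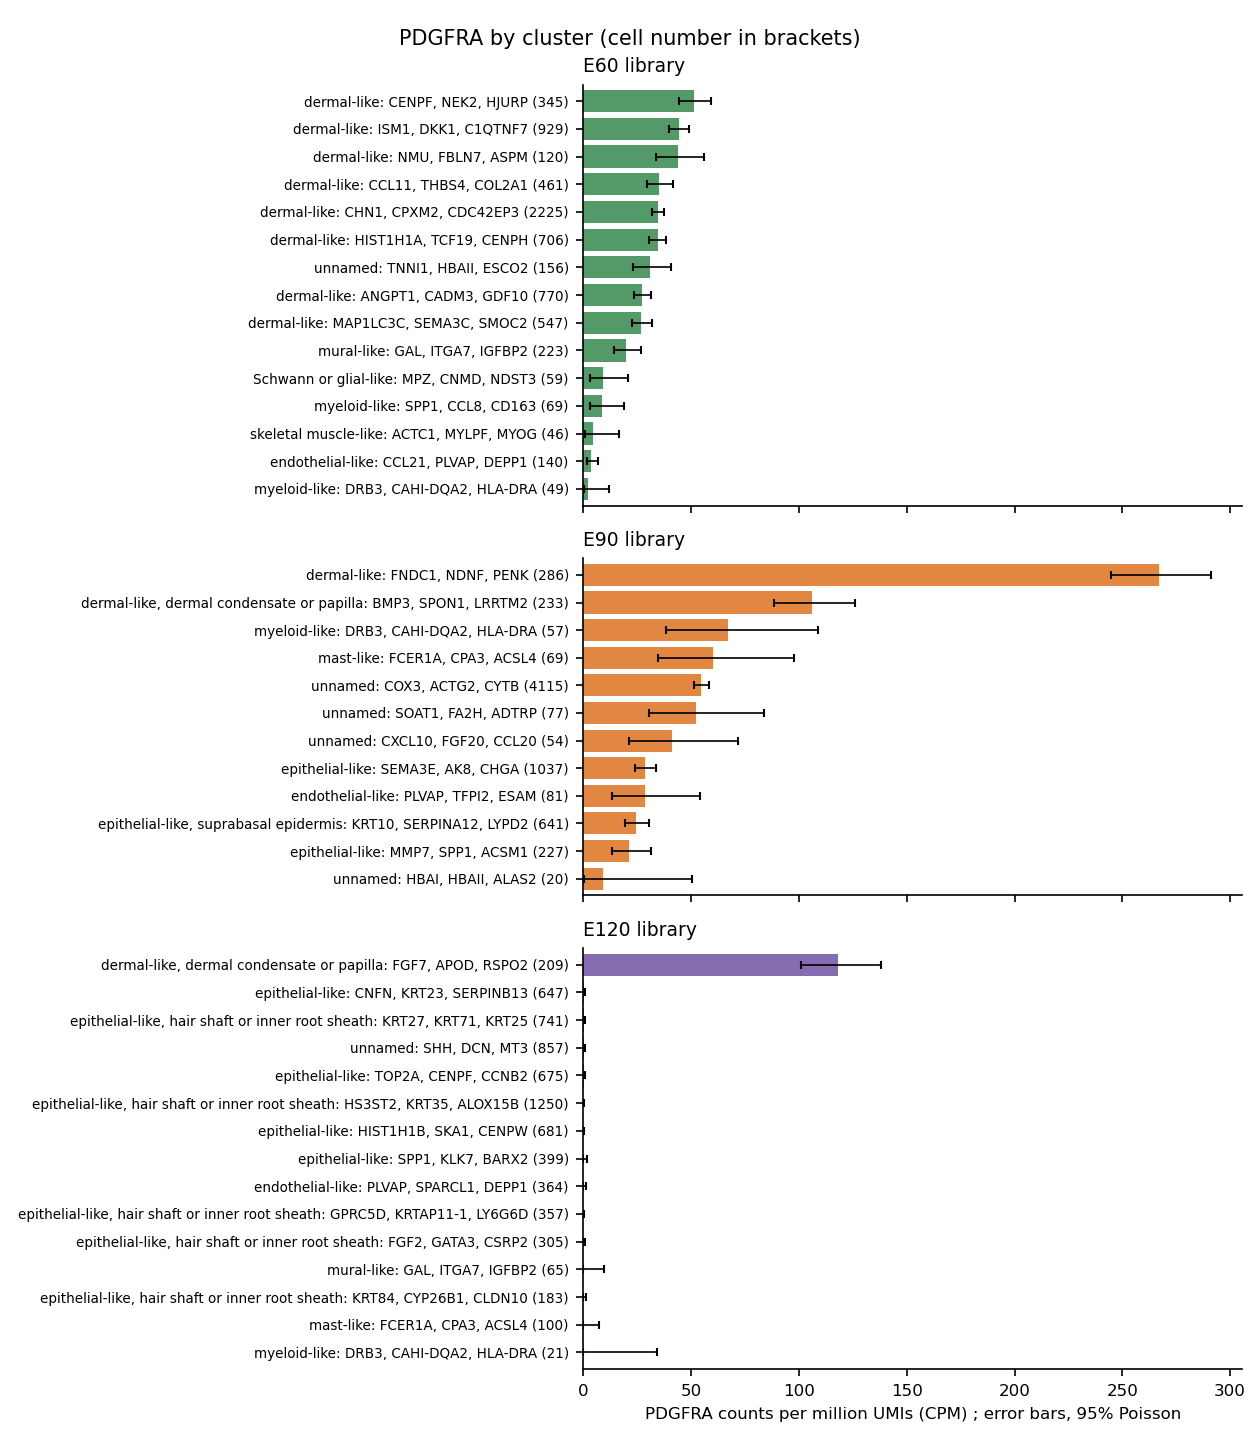
PDGFRA level in CPM (horizontal bars, with 95% Poisson intervals) for the same clusters and libraries. Dermal-like clusters lead in every library; at E90 non-dermal clusters keep 9.05 to 67.2 CPM, whereas at E120 the papilla-like cluster stands alone at 118 CPM and no other passes 0.240 CPM.

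Set against each other, ligand and receptor lay on opposite sides of the epithelium and dermis at E90. PDGFA was 237 CPM (227 to 247) in epithelial-like and 48.1 CPM (40.8 to 56.3) in dermal-like cells, 4.93-fold higher in the former (4.18 to 5.84; log2 2.28), where 8.45% of 6814 genes were at least 2-fold higher in epithelial-like cells. PDGFRA was 26.2 CPM (23.0 to 29.8) in epithelial-like and 207 CPM (191 to 223) in dermal-like cells, 7.87-fold higher in the latter (6.78 to 9.16; log2 -2.93), where 15.4% of the genes were at least 2-fold lower in epithelial-like cells. Both directions held under every alternative run. The PDGFA ratio shrank, however, to a log2 of 1.19 with each library clustered on its own. It was 1.02 when unnamed clusters, which held 50.0% of the E90 PDGFA UMIs, took their closest class. The large unnamed cluster then counted as epithelial-like and the CXCL10-led cluster of 54 cells as dermal-like. PDGFA then stood at 173 CPM in the epithelial-like and 85.0 CPM in the dermal-like class.

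At E120 the receptor kept its side and the ligand did not. PDGFRA was 115 CPM (98.4 to 134) in dermal-like against 0.0631 CPM (0.0205 to 0.147) in epithelial-like cells, a ratio of 1824 (766 to 5691) that rests on 5 epithelial counts; its log2 of CPM + 1 was -6.77, where 30.0% of 6353 genes were at least 2-fold lower in epithelial-like cells. PDGFA was 54.7 CPM (53.0 to 56.3) in epithelial-like and 91.2 CPM (76.3 to 108) in dermal-like cells, a log2 ratio of -0.73 that did not pass the 2-fold rule, beside 12.2% of genes that were at least 2-fold higher in epithelial-like cells. It passed towards the dermal-like class at the coarser resolution of 0.5 (-1.31) and with the PDGF genes kept in the clustering (-1.30). It also passed with each cell classed by its own markers (-2.10). At resolution 0.5 and with the PDGF genes kept, the dermal-like value stayed at 91.2 CPM while the epithelial-like one was 36.2 and 36.4 CPM. With own markers the make-up of the dermal-like class changed, from 218 to 540 cells, with PDGFA at 208 CPM and PDGFRA at 29.4 CPM in it. The epithelial sum is an average over unlike clusters. The 2424 epithelial-like cells outside the hair shaft or inner root sheath had 104 CPM, which overlapped the dermal-like value, and the unnamed SHH-led cluster had 220 CPM. When unnamed clusters took their closest class, the ratio was -0.35.

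Within a class the stage differences were not those of the whole libraries. In dermal-like cells PDGFRA was 5.80-fold higher at E90 than at E60 (5.30 to 6.33; log2 2.50), although 34.9% of 6582 genes were at least 2-fold higher and 5.55% lower in that comparison. From E90 to E120 it went from 207 to 115 CPM, 1.79-fold lower (1.51 to 2.14; log2 -0.84), where 19.1% of 6893 genes were at least 2-fold lower and 10.7% higher, while the whole libraries differed 32.5-fold. With each cell classed by its own markers this log2 ratio was -2.39, past the rule, and with libraries clustered apart it was -0.22. The dermal-like class numbered 6103 cells (E60), 521 (E90) and 218 (E120). Different clusters filled the class at each stage, 8 at E60, the FNDC1-led and BMP3-led ones at E90 and the FGF7-led one at E120. Compared between the condensate- or papilla-like parts alone, PDGFRA was 106 CPM at E90 and 118 CPM at E120, with overlapping intervals.

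In epithelial-like cells PDGFA was 4.33-fold lower at E120 than at E90 (4.11 to 4.56; log2 -2.10), where 26.0% of 6232 genes were at least 2-fold lower and 9.23% higher. The E90 class was made of the SEMA3E-, KRT10- and MMP7-led clusters, and the E120 class of 9 others, 5 of them like the hair shaft or inner root sheath. Outside that part the level was 104 CPM at E120, against 237 CPM for the E90 class.

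**Figure D3:**
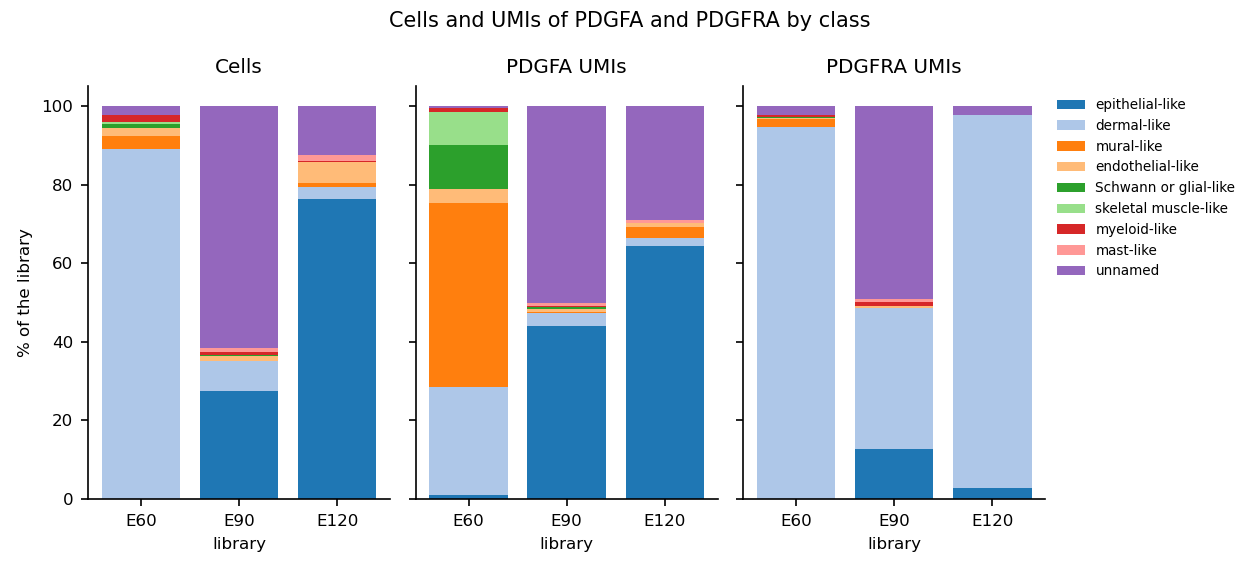
Percent of each library's cells (left), PDGFA UMIs (middle) and PDGFRA UMIs (right) in each class, stacked to 100%. PDGFA UMIs sit largely in mural-like cells at E60 (46.8%) and in epithelial-like and unnamed cells later, and PDGFRA UMIs sit in dermal-like cells at E60 (94.6%) and E120 (94.9%), with E90 split between dermal-like (35.7%), unnamed (49.1%) and epithelial-like (12.8%) cells.

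Across the 36 clusters of at least 50 cells the levels of ligand and receptor had a Pearson correlation of -0.08 on the log2(CPM + 1) scale. Clusters were then grouped by the library that gave the largest number of their cells, each still summed over its cells of all libraries. The correlation was -0.57 for the E60 group (13 clusters), -0.40 for E90 (10) and 0.28 for E120 (13). Clusters of 1 library share its depth and free RNA, and these values are given as a description. At E120 the papilla-like cluster is the only one with both genes above 1 CPM.

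**Figure D4:**
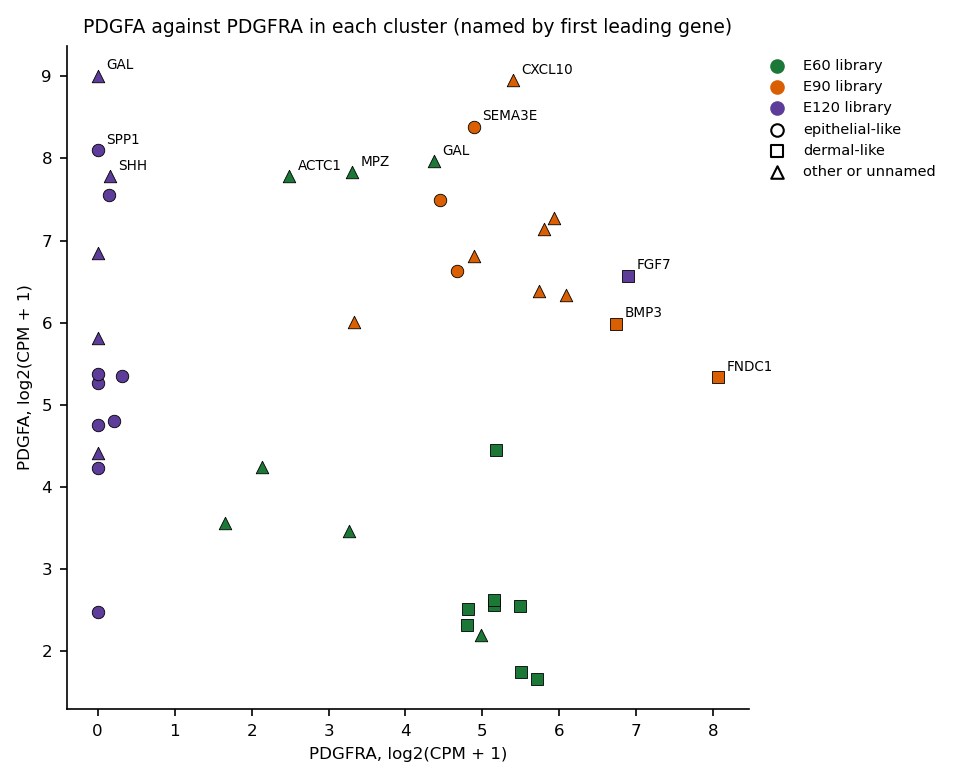
PDGFA against PDGFRA, both as log2(CPM + 1), with 1 point for each cluster of at least 20 cells in a library, coloured by library and shaped by class; labels give the first leading gene. The E60 dermal-like clusters form a group low in PDGFA, the E90 clusters run from high ligand (CXCL10, SEMA3E) to high receptor (FNDC1), and at E120 all but the FGF7-led papilla-like cluster lie near 0 on the receptor axis.

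Shares of cells with at least 1 UMI depend on depth and were also taken after thinning every cell to 2000 UMIs, which left out no cell. PDGFA was seen in 7.45% of E60, 42.5% of E90 and 39.4% of E120 cells, and after thinning in 2.54%, 25.8% and 14.7%. PDGFRA was seen in 23.9%, 19.9% and 1.54%, and after thinning in 6.28%, 10.7% and 0.609%. The order of E60 and E90 for the receptor thus followed the CPM only at equal depth. Most positive cells held few molecules: 1258 of 1640 PDGFRA-positive cells at E60 had 1 UMI, and the highest counts in a cell were 12 for PDGFRA (E90) and 22 for PDGFA (E90).

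By class, PDGFRA was seen in 25.4% of dermal-like cells at E60 (median depth 8488 UMIs), 57.6% at E90 (5839 UMIs) and 45.4% at E120 (5508 UMIs). After thinning these shares were 6.65%, 28.2% and 17.4%. In endothelial-like cells, which should lack the gene, they were 4.29% (16131 UMIs), 11.2% (3567 UMIs) and 0 of 365 (up to 1.01%; 6410 UMIs), or 0.714%, 4.49% and 0 after thinning. Epithelial-like cells at E90 had the receptor in 11.7% (3964.5 UMIs; 5.97% thinned), within the endothelial-like interval of 5.52% to 19.7%. PDGFA was seen in 53.9% of E90 epithelial-like cells (33.0% thinned) and 35.1% of E120 epithelial-like cells (15048 UMIs; 11.9% thinned). No class is sure to lack PDGFA. The lowest named classes of at least 50 cells without thinning were dermal-like at E60 (4.18%, 0.934% thinned), myeloid-like at E90 (20.7%, 13.8% thinned; 3389.5 UMIs; after thinning dermal-like cells were lower) and endothelial-like at E120 (9.04%, 3.01% thinned).

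Without thinning, cells with both transcripts were about as many as the product of the single shares gives within a class. At E60 there were 61 such dermal-like cells (product 64.7), at E90 72 dermal-like (product 74.3) and 130 epithelial-like cells (product 120). At E120 40 of all 41 double-positive cells were in the papilla-like cluster, 19.1% of its cells (product 37.0 cells). After thinning to 2000 UMIs few were left, and they were fewer than the product among papilla-like cells (2, product 5.45) and dermal-like cells of E90 (9, product 14.1) but more among dermal-like cells of E60 (6, product 3.79) and epithelial-like cells of E90 (44, product 37.6). Doublets and free RNA can also give such cells, and their part was not tested.

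The other PDGF ligands had few UMIs, and per UMI of the class they were often highest outside the epithelium. PDGFB, the B chain, had 7, 31 and 29 UMIs in the E60, E90 and E120 libraries. Endothelial-like cells held 6 of the 7 at E60, 2 of the 31 at E90 (where 19 were in unnamed and 7 in epithelial-like cells) and 18 of the 29 at E120 (6.39 CPM, 3.79 to 10.1). PDGFC, which also binds PDGFRA once its inhibitory domain is cut off, was highest in myeloid-like cells at E60 (18.9 CPM, 11.9 to 28.7; 22 of 146 UMIs), an interval that overlapped the Schwann-like one (12.4 CPM, 7 UMIs). At E120 its level was 12.9 CPM in mural-like cells (5 UMIs) and 0.669 CPM in epithelial-like cells, which held 53 of its 76 UMIs. PDGFD, a ligand of PDGFRB, was 4.68 CPM at E60, 13.8 CPM at E90 and 8.88 CPM at E120 in endothelial-like cells. The E90 value rests on 5 UMIs, and its interval (4.48 to 32.2) holds the 8.02 CPM of epithelial-like cells. Those epithelial-like cells had 73 of the 165 PDGFD UMIs of E90. By counts, dermal-like cells of E60 held 55 of its 75 PDGFD UMIs and 105 of its 146 PDGFC UMIs. In the SPP1-led epithelial-like cluster of E120, which was high in PDGFA, PDGFD was 9.16 CPM (5.81 to 13.7).

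PDGFRB, the other receptor, had its highest level at E60 and E120 in the mural-like cells, in which PDGFA was high. It stood there at 15.4 CPM at E60 (10.6 to 21.6) and 77.5 CPM at E120 (52.3 to 111). By counts, dermal-like cells held 138 of the 174 PDGFRB UMIs of E60 and mural-like cells 33. The 13 mural-like cells of E90 had 0. Of the 46 PDGFRB UMIs of E120, 30 were in the 65 mural-like cells and 12 in dermal-like cells (8.23 CPM). PDGFRL, a receptor-like protein without a kinase domain, had its highest class level in dermal-like cells at each stage. At E60 mural-like cells had 62.9 CPM of it, and dermal-like clusters were unlike, with 1.71 CPM (ISM1-led) and 127 CPM (ANGPT1-led). At E90 dermal-like cells held 24.6% of the PDGFRL UMIs and unnamed cells 61.3%. In dermal-like cells PDGFRL was 76.9 CPM at E60, 107 CPM at E90 and 241 CPM (216 to 267) at E120, against 0.391 CPM in epithelial-like cells at E120. Over the whole dermal-like class PDGFRA was thus lower at E120 than at E90, and PDGFRL was higher. Between the condensate- or papilla-like parts alone PDGFRL was also higher, at 73.2 CPM (E90) and 226 CPM (E120). There PDGFRA was 106 and 118 CPM, with overlapping intervals.

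**Figure D5:**
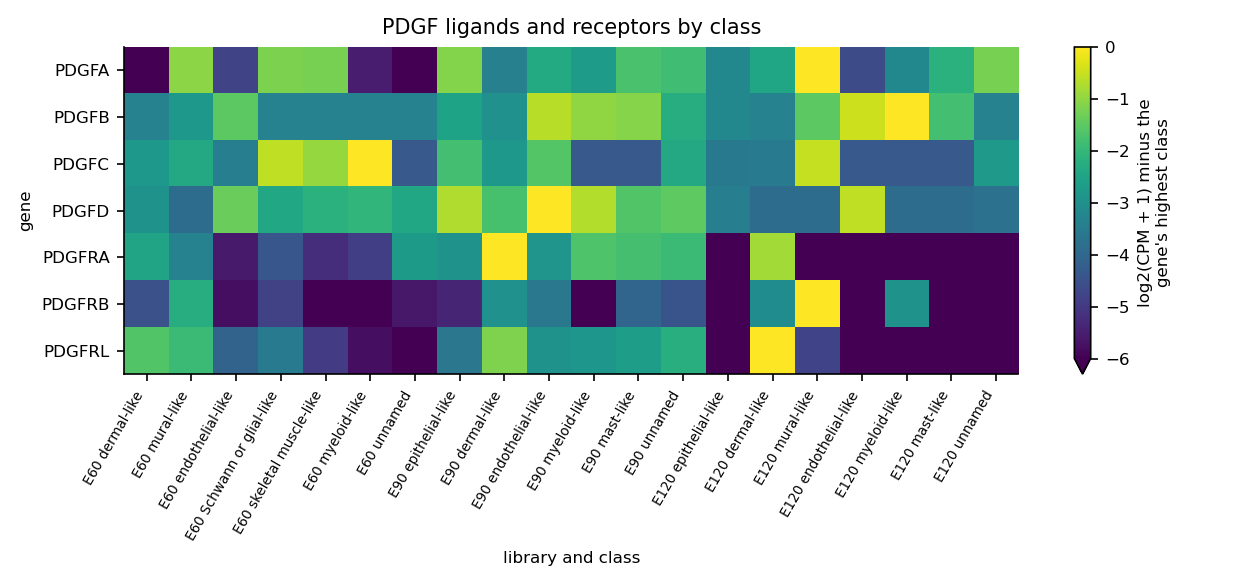
Level of each PDGF ligand and receptor gene in each library and class of at least 20 cells, as log2(CPM + 1) minus the same gene's highest class (yellow, 0; values below -6 share the darkest colour), so that colours compare classes within a gene and not genes with each other. PDGFA peaks in mural-like cells of E120, PDGFRA in dermal-like cells of E90 and PDGFRL in dermal-like cells of E120; PDGFB, PDGFC and PDGFD rest on few UMIs (29, 76 and 55 at E120).

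A list of 59 other genes of the pathway had 55 members in the table. From E60 to E90, over all cells, 37 had at least 10 CPM in the higher library. Of these, 14 were at least 2-fold higher and 2 lower, with a list median log2 of 0.78 beside 0.13 for all genes. From E90 to E120 none of 36 was 2-fold higher and 19 were lower, with a median of -1.08 beside -0.24. From E60 to E120 5 of 32 were higher and 14 lower (median -0.47 beside 0.02). As background, 21.3% of all genes were higher and 8.08% lower in the first comparison, 9.99% higher and 24.2% lower in the second, and 19.4% higher and 21.5% lower in the last.

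Processing and binding partners of the ligand differed in direction. PCSK5, a convertase of the family that cleaves growth factor precursors, and SPARC, a matrix protein that binds PDGF, were lower at each later stage over whole libraries, with SPARC at 4294, 1534 and 150 CPM. In dermal-like cells they were within 2-fold from E60 to E90, and from E90 to E120 SPARC was within 2-fold and PCSK5 was higher (47.5 and 115 CPM). PLAU, the urokinase protease, was 12.0 CPM at E60 and 51.8 CPM at E90. Within E90 PLAU was on the epithelial side (74.4 against 14.6 CPM), whereas PCSK5 (13.8 against 47.5 CPM) and SPARC (832 against 2773 CPM) were on the dermal side. The surface partners NRP1, a coreceptor, and LRP1, an endocytic receptor, were both dermal as well, NRP1 with 146 and LRP1 with 26.7 CPM in dermal-like cells of E90. At E120 the NRP1 level was 39.1 CPM on the dermal and 2.95 CPM on the epithelial side.

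Among the 24 genes of receptor-proximal signalling, 8 were at least 2-fold higher at E90 than at E60 and none lower, while 9 were within 2-fold and 7 below 10 CPM. Of all genes, 21.3% were higher and 8.08% lower. The 8 included the PI3-kinase genes PIK3R1 (41.4 and 93.1 CPM) and PIK3CA (7.52 and 25.8 CPM), the Ras exchange factor SOS1 and the adaptor GAB1. In dermal-like cells alone 11 were higher at E90 than at E60, 7 were within 2-fold and 6 below 10 CPM, beside a background of 34.9% higher. Between epithelium and dermis at E90, where 8.45% of all genes were higher and 15.4% lower in epithelial-like cells, most were within 2-fold: 1 was higher in epithelial-like cells (HRAS), 4 were lower, GAB1 and FYN among them, and 13 were within. At E120 8 were lower in epithelial-like cells, beside 30.0% of all genes, among them PIK3R1 with 14.5 against 230 CPM, and HRAS alone was higher, with 50.8 against 17.1 CPM.

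Of the brakes, DUSP6, a phosphatase that acts on ERK, was higher in epithelial-like than in dermal-like cells at E90 (218 against 34.4 CPM). At E120 it was within 2-fold (64.4 against 32.9 CPM), and SOCS3, a cytokine signalling inhibitor, was on the dermal side with 46.6 against 0.429 CPM. The early response genes were close between the tissues at E90, where only MYC (88.5 against 35.7 CPM) and IER2 (57.0 against 22.3 CPM) were higher in epithelial-like cells and none was lower. At E120 5 of the 7 were lower in epithelial-like cells, beside 30.0% of all genes, among them FOS (2030 against 8255 CPM) and EGR1 (24.1 against 87.1 CPM), while MYC was higher. Early response genes can also be induced by dissociation, which differed at E120, and its part was not tested.

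The genes most like each member over the 36 clusters were taken from 4105 genes with at least 50 CPM in a cluster. For PDGFA these were INKA2 (Pearson r = 0.89), the transcription factor TFAP2B (0.86), AJUBA (0.83), the hemidesmosome collagen COL17A1 (0.82) and the basal keratin KRT5 (0.81). With clusters grouped by the library that gave the largest number of their cells, the values for TFAP2B were 0.75 (E60), 0.95 (E90) and 0.75 (E120). For PDGFRA they were the basement membrane laminin LAMA2, SPON2, the collagen COL6A2 and the transcription factor SHOX2 (each 0.97), and TBX15 (0.96). In the E60 group of clusters, which differ less in the receptor, these 5 values were 0.76 to 0.88. COL17A1 and KRT5 are also on the list that named epithelial clusters, and all of these values come from the same libraries, so they describe likeness of pattern only.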

How the data were processed

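The authors deposited 1 table of natural log values, in which each cell had been scaled to a total of 10000, as the values show. Per the submitters' processing notes Cell Ranger 3.0.2 was used; the genome build, annotation and cell filters are not given in the sources used here. The planned analysis assumed counts. UMI counts were recovered by inverting the log (100.0% of nonzero values whole within 0.01), taking each cell's smallest value as 1 UMI. The design text states fewer cells than the 20676 in the table. Clusters came from 2000 variable genes, 30 principal components, 20 neighbours and Leiden resolution 1 (leidenalg 0.10.2, Python 3.11.15), without PDGF ligand and receptor genes. A class needed at least 3 markers. Where none of its own markers was among the 10 leading genes, it also needed a margin of 0.05 over the next class. Otherwise no margin was asked: the PLVAP-led endothelial-like cluster of E90 had 0.644 against 0.639 for suprabasal epidermis. Clusters led by another class's markers, or by at least 3 mitochondrial or globin genes, stayed unnamed. This scoring was set after the data were seen.

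Counts were summed per library and class as CPM, with exact Poisson and Clopper-Pearson intervals at 95%. Ratios use log2(CPM + 1), and the 2-fold rule asks for at least 10 CPM in the higher sum. The scripts were tested on simulated data. Named genes are PDGFA, PDGFRA, the pathway list, the 5 genes most correlated with each member over clusters, and leading genes of clusters. Members and lists were chosen with earlier results of these data known. No cell was removed. Doublet calling did not work at E60 and E90, where it marked 2 and 1 cells, and marked 121 cells at E120. Alternatives were other pseudocounts, scalings, cell filters, resolutions and class rules. RefSeq's gene list (assembly ARS1.2, names only) held 11897 of the table's 12709 symbols.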

Additional observations from a re-analysis of the deposited data

Results flagged for a closer look

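The PDGFA ratio of epithelial-like over dermal-like cells had opposite signs at the 2 later stages, with a log2 of 2.28 at E90 and -0.73 at E120. The E120 value did not pass the 2-fold rule. IER2, an early response gene, was past 2-fold in opposite directions, at 1.31 at E90 and -1.25 at E120. With 1 library a stage neither difference was tested. The E120 library was prepared in another way than E90, and its epithelial-like cells were mostly of other clusters.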

How the results depend on the processing

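No paired analysis was possible because each stage was 1 library, and no replicate was left out for the same reason. No log2 ratio of PDGFA or PDGFRA changed sign under any alternative run. Of 120 values of these ratios under alternatives, 64 stayed within the counting interval of the reported value and 56 moved outside it; the cause was not tested unless the setting itself gives it.

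A pseudocount of 10 CPM, which pulls low values together, gave PDGFA 2.64, -1.06 and 1.58 over all cells (E60 to E90, E90 to E120, E60 to E120), PDGFRA 0.74, -2.59 and -1.85, PDGFRA epithelial over dermal -2.58 (E90) and -3.64 (E120), PDGFA in epithelial-like cells -1.93 and PDGFRA in dermal-like cells from E60 to E90 2.25. Equal weight for each cell gave PDGFA -0.70 (E90 to E120) and 2.40 (E60 to E120), -0.22 epithelial over dermal at E120 and -1.54 in epithelial-like cells, and PDGFRA -3.61, -2.79 and, epithelial over dermal at E90, -2.65. The PDGFA difference from E90 to E120 over all cells was then under 2-fold. A filter for 1000 or more genes and 10% or less mitochondrial counts (2756 E90 cells kept) gave PDGFA 3.24 and -1.22, PDGFRA 1.33 (then past 2-fold) and -4.84, and PDGFRA epithelial over dermal at E90 -3.21. Scaling by the median of ratios gave PDGFA 3.00 and -0.90 (then under 2-fold), 2.55 (E90) and -0.42 (E120) epithelial over dermal and -1.77 in epithelial-like cells, and PDGFRA 0.76, -4.18, -2.66 (E90 epithelial over dermal) and 2.01 (dermal-like, E60 to E90). The median of all genes itself stood at 0.13 from E60 to E90, -0.24 from E90 to E120 and 0.47 in dermal-like cells from E60 to E90.

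Class settings moved both genes. For PDGFA epithelial over dermal at E90 the ratios were 1.91 (resolution 0.5), 2.02 (resolution 2), 1.27 (each cell by its own markers) and 1.19 (libraries clustered apart), and for PDGFRA -3.32 (resolution 0.5), -1.85 (own markers) and -1.99 (apart). At E120 PDGFA was -1.31 (resolution 0.5), -2.10 (own markers) and -1.30 (PDGF genes kept), all past 2-fold, and PDGFRA -4.81 (own markers). PDGFA in epithelial-like cells from E90 to E120 was -2.30, -1.93, -1.92, -2.02 and -2.68 (resolution 0.5, resolution 2, own markers, apart, PDGF genes kept). PDGFRA in dermal-like cells was 2.14 (own markers) and 1.86 (apart) from E60 to E90, and -2.39 (own markers, past 2-fold) and -0.22 (apart) from E90 to E120. Among settings chosen after the data were seen, leaving out the top 6% of doublet scores gave PDGFA 3.24 from E60 to E90, and giving unnamed clusters their closest class gave PDGFA 1.02 (E90), -0.35 (E120) and -1.27 (epithelial-like cells) and PDGFRA -2.09 (E90).

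For the pathway list the pseudocount of 10 CPM gave 6 genes higher from E60 to E90, 12 lower from E90 to E120, 3 higher and 8 lower from E60 to E120 and 6 lower in epithelium at E90. Scaling by the median of ratios gave 1 higher from E90 to E120, 6 lower in epithelium at E90 and 5 higher in epithelium at E120. Low depth at E90 (median 3714 UMIs) and small groups (13 mural-like and 7 Schwann-like cells at E90, 3 epithelial-like at E60) limit what those classes can show.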

Other observations

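At E90, 7 Schwann-like cells carried PDGFA at 349 CPM (210 to 545; 19 UMIs) and 13 mural-like cells at 243 CPM (139 to 395; 16 UMIs). Mast-like cells had 154 CPM at E90 (111 to 209) and 114 CPM at E120 (86.9 to 147), and PDGFRA in them was 60.1 CPM at E90 and 0 UMIs in 100 cells at E120. The mast-like cells of E90 also carried 4880 CPM of the epithelial and 4226 CPM of the dermal list.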
